A study of Mus musculus with 20 samples.

Results

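The libraries described here are the 10 that came from the livers of 5 EedHepKO mice (written KO), out of 20 libraries in the series. They were taken as the 5 KO libraries collected after partial hepatectomy (PHx) and the 5 collected at baseline, by their genotype and collection-time labels. KO mice carry Alb:Cre, a Cre recombinase transgene under the albumin promoter, and Eedflox, an Eed allele whose loxP sites flank exons 3 and 6, so that functional EED is lost in hepatocytes while cells in which the albumin promoter is silent keep the gene. All mice were male, 2 months old, labelled C57BL6/J and kept on standard chow. The baseline group (0 h) is lobes 1, 2 and 3, removed at PHx, and the group after PHx is lobes 4, 5 and 6 of the same mice, taken at 30 h in mouse 12, at 40 h in mice 10 and 11 and at 48 h in mice 7 and 8. The other 10 libraries are wild type (WT), 5 at baseline and 5 after PHx, and serve here for the test of whether the response differs. They also add to the estimate of the spread in the tests of the KO response, except where the KO libraries were fitted alone. The effect of PHx and the lobe sampled cannot be told apart, and neither can the collection time and the mouse.

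Polycomb repressive complex 2 (PRC2), of which EED is a core subunit, methylates histone H3 at lysine 27 and keeps developmental genes silent in adult cells. After loss of liver mass the remaining hepatocytes leave quiescence: growth signals induce G1 cyclins, E2F factors drive the genes of DNA replication, and a later wave of mitotic genes, bound by MYB and FOXM1 complexes, accompanies division. During this time the liver also makes acute phase proteins, takes up fat and lowers many genes of its resting metabolism.

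Eed was measured first as a check of the labels. It stood at 6.5, 7.52, 3.83, 5.57 and 4.79 CPM at baseline and 4.97, 2.75, 4.69, 4.86 and 5.82 CPM after PHx, given, like all values per library below, in the order of mice 7, 8, 10, 11 and 12. CPM are counts per 1000000 counts of a library's total after scaling by the trimmed mean of M-values (TMM). The 10 KO libraries lay below the WT libraries, which held 15.3 to 18.4 CPM at baseline and 14.6 to 23.2 CPM after PHx, and within KO liver Eed was not called by edgeR's quasi-likelihood test (log2 fold change -0.29, SE 0.21, adjusted p = 0.308). Total counts per KO library ran from 21634890 to 30461351. The 10 hepatocyte markers summed to 82753 to 114980 CPM at baseline and 48791 to 107920 CPM after PHx, which fits the tissue label. In bulk tissue, fewer cells of a type and less RNA per cell cannot be told apart. The strand setting of the counting is not given in the sources used here, so reads of 38 genes named below that overlap a gene on the opposite strand could not be separated: Abcb11, Acot3, Afp, Alas2, Carmil1, Ccna2, Ccnd1, Ccne2, Cebpd, Cyp2f2, Dbp, Ddit3, E2f7, Eed, Egfr, Elovl3, Fen1, Fosl1, H19, Hand2, Heatr1, Hnf4a, Hsd3b2, Hsd3b5, Igf2, Igsf3, Keg1, Lrat, Nkx2-2, Otx2, Pax9, Pdgfra, Prodh, Prss8, Psat1, Serpina1c, Slc7a11 and Top2a. Only reads mapped to a single place were counted, which leaves members of close families uncertain (Saa1 and Saa2, the Mup, Hsd3b, Serpina1, Acot and Cyp2c genes).

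After PHx, the lists of ribosome assembly, p53 targets, fetal liver and the acute phase held larger shares of genes called higher than all genes tested, and the lists of drug, bile acid, sterol and male-biased metabolism larger shares called lower. Lists and members were chosen with earlier results of these data known, so these shares are a description and not a test. Genes of DNA replication were high in 2 of the 5 mice, and genes of mitosis were high in 1. Of 14661 genes tested, 2561 (17.5%) were higher and 1770 (12.1%) lower after PHx than at baseline at an edgeR adjusted p under 0.05. A log2 fold change of at least 1 was reached by 1665 of the higher and 1055 of the lower genes, and of at least 3 by 312 and 74. All 5 mice moved up in 1491 of the 2561 higher genes and down in 1569 of the 1770 lower genes. In 907 genes (6.19%) every library after PHx lay above every baseline library, and in 1134 (7.73%) every one lay below. With the mouse as a block the calls were 1575 higher (10.7%) and 1732 lower (11.8%), of which 1518 and 1481 were the same genes. Scaling by library size alone moved the median of all genes by 0.27 on the log2 scale and the share of calls that were higher from 59.1% to 80.9%.

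One library stood apart in the size of its response. Over the genes called higher, the median change of log2(CPM + 1) between the samples of one mouse was 1.14, 1.22, 0.25, 0.88 and 1.07 in mice 7, 8, 10, 11 and 12, and over the genes called lower it was -1.18, -1.16, -0.55, -0.90 and -0.96. Mouse 10 moved least in both directions. Without its library after PHx, 3404 genes (22.8%) were higher and 2633 (17.6%) lower, of 14935 tested. For the KO response, each gene described below with full statistics kept its call under every alternative that tested it, unless a loss is stated. Of the 18 alternatives run, some left genes untested. Of the 147 named genes that were called, the filter of 1 CPM in 5 libraries tested 137, DESeq2 145 and the KO libraries alone 143. For 90 of the 147, no alternative that tested them ended the call.

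Nearer to the shares over all genes, genes called higher made up 20.5% of the replication genes, 26.7% of the tested developmental genes, 27.3% of the recombination genes and 27.8% of the G1 list. Of the hepatocyte transcription factors 9.52% were higher and 19% lower.

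**Figure D1:**
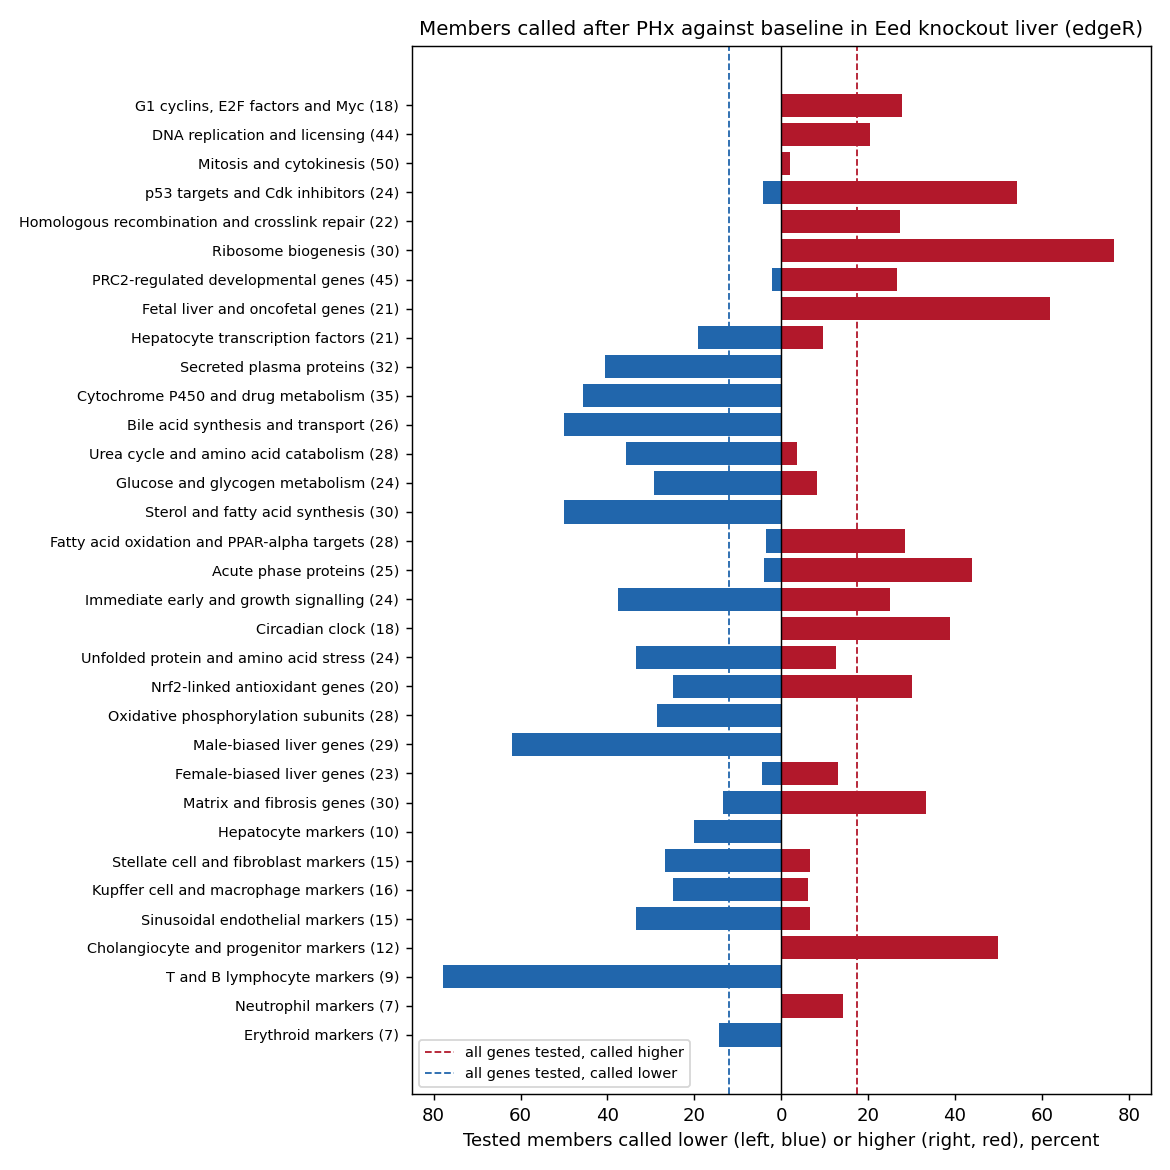
Share of the tested members of 33 gene lists that were called lower (blue, left) or higher (red, right) after PHx than at baseline in Eed knockout liver, in percent, with the number tested in parentheses. Dashed lines mark the shares over all 14661 genes, 17.5% higher and 12.1% lower, and ribosome biogenesis has the longest red bar with 23 of 30 members.

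The genes with the largest increases were mostly near or at 0 in resting KO liver. Cidec, which makes large lipid droplets, stood at 3.88, 1.23, 1.17, 1.08 and 0.563 CPM at baseline and 256, 384, 30.5, 83.2 and 666 CPM after PHx. Every library after PHx lay above every baseline library, with mouse 12 the highest and mouse 10 the lowest (log2 fold change 7.46, SE 1.21, adjusted p = 0.000713). Acot5, a peroxisomal acyl-CoA thioesterase, stood at 0, 0.0423, 0.0345, 0.0831 and 0 CPM at baseline and 42.8, 12.1, 0.305, 4.0 and 65.8 CPM after PHx (log2 fold change 9.43, SE 2.00, adjusted p = 0.00394). It too was highest in mouse 12 and lowest in mouse 10. Npy, which encodes neuropeptide Y, stood at 0.232, 0.0845, 0.103, 0.0415 and 0 CPM at baseline and 39.4, 4.79, 2.4, 6.31 and 67 CPM after PHx (log2 fold change 7.86, SE 1.39, adjusted p = 0.0016), with mice 12 and 7 far above the rest. Otx2, a head and eye homeobox factor, stood at 0.0664, 0, 0.276, 0.0831 and 0.0469 CPM at baseline and 23.2, 6.3, 2.63, 1.75 and 15.9 CPM after PHx (log2 fold change 6.59, SE 0.97, adjusted p = 0.00126).

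Other genes among the largest increases were highest in mouse 8 (Prss22, Cldn4, Epn3, Meltf and Oxtr) or in mouse 11 (Olr1). Prss22, a serine protease, had 3 counts in the 5 baseline libraries together and 7961 after PHx, a ratio of 2097 with a 95% counting interval of 717 to 10169. Its values were 0, 0, 0.069, 0.0415 and 0 CPM at baseline and 12.9, 155, 0.381, 13.1 and 0.568 CPM after PHx. Cldn4, a claudin of tight junctions, stood at 1.79, 0.38, 0.69, 0.498 and 0.751 CPM at baseline and 20.2, 260.4, 9.23, 181 and 3.31 CPM after PHx (log2 fold change 6.82, SE 1.20, adjusted p = 0.00109). Mice 8 and 11 were high and mouse 12 lowest, though still above every baseline library. Epn3, an epsin of endocytosis, was highest in the same mice, at 0.232, 0.127, 0.172, 0.166 and 0.282 CPM at baseline and 4.29, 75.2, 3.66, 56.6 and 2.23 CPM after PHx (log2 fold change 7.15, SE 1.04, adjusted p = 0.000372). Meltf (log2 7.96, adjusted p = 0.00281) and the scavenger receptor Olr1 (log2 6.43, adjusted p = 0.00218) rose as well. Oxtr, the oxytocin receptor, had 2 counts at baseline and 1189 after PHx, a ratio of 470 with a 95% counting interval of 130 to 3883.

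Among the largest decreases, Hsd3b5, a male-biased hydroxysteroid dehydrogenase, stood at 4.05, 36, 9.21, 29.3 and 7.98 CPM at baseline and 0.15, 0, 0, 0.0278 and 0.379 CPM after PHx (log2 fold change -7.48, SE 1.53, adjusted p = 0.00249). Elovl3, a fatty acid elongase, stood at 25, 79.6, 38.7, 104 and 26.4 CPM at baseline and 0.15, 0.703, 0.153, 0.556 and 2.04 CPM after PHx (log2 fold change -6.30, SE 0.82, adjusted p = 0.000228). In both genes the groups did not overlap. Nr4a1, an orphan nuclear receptor and immediate early gene, stood at 179.8, 89.5, 165, 122 and 60.7 CPM at baseline and 9.08, 3.29, 2.25, 11.1 and 8.47 CPM after PHx (log2 fold change -4.17, SE 0.63, adjusted p = 0.00045), so that each baseline library held several times the CPM of any library after PHx. Fos (from 194 ± 74.1 to 14.3 ± 12 CPM, SD, n = 5 each; log2 -3.75, adjusted p = 0.00201) and Fosb (log2 -3.91, adjusted p = 0.00326), subunits of the AP-1 factor, fell too. Further decreases were Keg1 (log2 -4.25, adjusted p = 0.00512), Adh6a (log2 -4.05, adjusted p = 0.00292), the glycogen targeting subunit Ppp1r3g (log2 -3.92, adjusted p = 0.000865), Gbp10 (log2 -3.80, adjusted p = 0.00266), Selenbp2 (log2 -3.68, adjusted p = 0.00278) and Hsd3b2 (log2 -3.43, adjusted p = 0.00613).

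Genes of the G1 phase rose in part, together with the cell-cycle inhibitor Cdkn1a. Cdkn1a, which encodes p21, stood at 75.9, 60.01, 59.1, 74.8 and 54 CPM at baseline and 358, 325, 154, 270.0 and 412 CPM after PHx. Every library after PHx lay above every baseline library, with mouse 10 the lowest of them (log2 fold change 2.23, SE 0.54, adjusted p = 0.00577). Ccne1, the cyclin that leads from G1 into S phase, stood at 0.996, 1.27, 0.621, 0.623 and 0.469 CPM at baseline and 19, 9.22, 42.7, 14.3 and 22.3 CPM after PHx, again without overlap and here with mouse 10 the highest (log2 fold change 4.75, SE 0.64, adjusted p = 0.000259). Ccnd1, a cyclin of early G1, did not follow: it stood at 164, 123, 258, 206 and 327 CPM at baseline and 50.02, 48.3, 506, 237 and 102 CPM after PHx, higher than its own baseline in mice 10 and 11 and lower in mice 7, 8 and 12 (log2 fold change -0.19, SE 0.70, adjusted p = 0.852). Of 18 G1 cyclins, E2F factors and Myc, 5 were higher and none lower (median log2 fold change 0.62, against 0.10 over all genes tested). Besides Ccne1 these were Ccne2, E2f3, E2f7 and Mybl2, and the count was 3 without the library of mouse 10 after PHx and 1 with the mouse as a block in the KO libraries alone. E2f7, an atypical E2F repressor, held 15.6 CPM in mouse 10 and 0.521 to 2.61 CPM in the others after PHx, against 0.172 to 0.763 CPM at baseline (log2 3.45, adjusted p = 0.0132), and its call was lost with the mouse as a block (adjusted p = 0.126), with the mouse as a block in the KO libraries alone (adjusted p = 0.144) and without the library after PHx of mouse 10 (adjusted p = 0.0894). Myc held 11 to 47.6 CPM at baseline and 7.93 to 53.3 CPM after PHx (log2 0.56, adjusted p = 0.5), and Cdkn2a, which encodes p16 and p19, 5.16 to 9.89 CPM and 5.34 to 10.8 CPM (log2 0.10, adjusted p = 0.893).

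Genes of DNA replication and licensing divided the mice. Of 44 members, 9 were higher (20.5%, against 17.5% of all genes) and none lower (median 1.56). In mouse 10, 43 members lay above every baseline library and in mouse 11, 38 did, against 18 in mouse 8, 15 in mouse 7 and 9 in mouse 12. Over all genes tested the shares above every baseline library were 39%, 39.2%, 26.3%, 32.8% and 32.6% in mice 7, 8, 10, 11 and 12, so that mice 7, 8 and 12 did not stand clearly above them in this list. All 44 were highest in mouse 10 among the libraries after PHx. Rrm2, a subunit of ribonucleotide reductase, rose in all 5 mice and was lowest after PHx in mouse 11, at 18.2, 11.9, 5.17, 6.73 and 3.33 CPM at baseline and 85.5, 105, 297, 31.6 and 155 CPM after PHx with no overlap of the groups (log2 fold change 3.89, SE 0.75, adjusted p = 0.00179). Chaf1b, a subunit of chromatin assembly factor 1, stood at 2.36, 1.56, 1.34, 1.04 and 1.74 CPM at baseline and 7.28, 4.39, 25.2, 6.0 and 4.31 CPM after PHx (log2 fold change 2.55, SE 0.60, adjusted p = 0.00518). The flap endonuclease Fen1 went from 5.43 ± 0.859 to 26.2 ± 16.6 CPM (SD, n = 5 each; log2 2.27, adjusted p = 0.00607). Mcm5, a subunit of the replicative helicase, stood at 9.13, 8.03, 3.52, 5.23 and 3.99 CPM at baseline and 3.33, 6.46, 129, 39.2 and 2.75 CPM after PHx. Only mice 10 and 11 lay above the baseline range, and the gene was not called (log2 fold change 2.59, SE 1.03, adjusted p = 0.062). Mcm2, of the same helicase, was called (log2 2.34, adjusted p = 0.0414), but the call was lost with the mouse as a block (adjusted p = 0.157), with the mouse as a block in the KO libraries alone (adjusted p = 0.204) and without the baseline libraries of mice 7, 8, 10, 11 or 12 or the library after PHx of mouse 10 or 11 taken singly (adjusted p from 0.0601 to 0.138). With scaling by library size alone 19 of the 44 were higher, with DESeq2 20, and with the KO libraries fitted alone 14, or 4 with the mouse as a block in that fit. Without the library of mouse 10 after PHx 5 were higher and 1 lower, leaving out any one baseline library left 5 higher, and leaving out mouse 12 after PHx left 15.

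The 250 bases before the start of Mcm5 are shown because E2F matches were common in this list, with matches to an E2F site in capitals (TTTCCCGC, TTTGGCGC or TTTCGCGC, on either strand, here 2 overlapping matches). Sequences are from RefSeq, build GRCm38.p6 (mm10), printed 5′ to 3′ on the strand of the gene. The Mcm5 window is chr8:75109259-75109508, + strand.
Mcm5: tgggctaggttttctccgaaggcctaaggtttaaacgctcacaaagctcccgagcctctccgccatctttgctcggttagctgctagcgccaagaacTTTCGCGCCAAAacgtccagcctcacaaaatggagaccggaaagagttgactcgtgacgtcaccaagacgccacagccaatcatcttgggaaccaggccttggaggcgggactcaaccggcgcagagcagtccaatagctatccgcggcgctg
In windows of 300 bases, from 250 before to 50 after the start, 12 of the 35 replication genes with an entry (34.3%) held such a match, as did 4 of 42 mitotic genes (9.5%) and 515 of all 27025 promoters (1.9%). A match is a description of the letters and not evidence of binding.

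Mitotic genes were high in one mouse. Among the libraries after PHx, 49 of 50 members of the mitosis and cytokinesis list were highest in mouse 10, and 49 lay above every baseline library there. In mouse 11 this held for 10 members, in mouse 8 for 2, and in mice 7 and 12 for none. These are 98%, 20% and 4% of the list in mice 10, 11 and 8, against 26.3%, 32.8% and 39.2% of all genes. The mean log2(CPM + 1) over the list changed by 3.31 in mouse 10 and 0.63 in mouse 11, and by -1.99, -0.65 and -0.58 in mice 7, 8 and 12. In mouse 7 all 50 members were below its own baseline, while in mouse 11, 43 were above its own baseline. The share of members below the mouse's own baseline was 100%, 82%, 0%, 14% and 82% in mice 7, 8, 10, 11 and 12. Over all genes it was 49.3%, 46.6%, 53.1%, 47.8% and 53.2%. Cdk1, the kinase that starts mitosis, stood at 16.5, 8.87, 6.69, 10.1 and 5.45 CPM at baseline and 3.21, 9.16, 139, 17.1 and 2.46 CPM after PHx (log2 fold change 1.84, SE 1.12, adjusted p = 0.217). The level in mouse 10 was several times that in any other library, while mice 7 and 12 were below their baseline. Ccnb1, the cyclin partner of Cdk1, stood at 9.23, 5.96, 4.14, 5.28 and 2.39 CPM at baseline and 0.39, 2.31, 49.4, 6.28 and 1.09 CPM after PHx (log2 fold change 1.13, SE 1.34, adjusted p = 0.537). Foxm1, a transcription factor of G2 genes, stood at 5.08, 2.54, 2.14, 2.99 and 1.22 CPM at baseline and 2.19, 1.91, 46.7, 3.78 and 2.18 CPM after PHx (log2 fold change 2.02, SE 1.08, adjusted p = 0.158). Mki67, Top2a and Ccna2 were also highest in mouse 10, at 119, 104 and 93.5 CPM, and were not called.

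Only Incenp of the 50 was called higher (list median 1.29), a subunit of the chromosomal passenger complex with 46.3 CPM in mouse 10 and 3.22 to 9.98 CPM in the others after PHx (log2 2.05, adjusted p = 0.046). That call was lost with no filter on low counts (adjusted p = 0.0539), with the mouse as a block (adjusted p = 0.133), with the mouse as a block in the KO libraries alone (adjusted p = 0.0995) and without the baseline libraries of mice 8, 10, 11 or 12 or the library after PHx of mouse 8 or 10 taken singly (adjusted p from 0.0544 to 0.257). Without the library of mouse 10 after PHx the list median was -0.57, with none higher and 2 lower. Baseline levels were not uniform either: the mean log2(CPM + 1) of the list was 3.05, 2.35, 1.73, 2.05 and 1.51 in mice 7, 8, 10, 11 and 12, against 0.62 to 0.78 in the WT baseline libraries.

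The promoters of Cdk1 and Top2a are shown because 29 of 42 mitotic promoters (69.0%) held the cell-cycle homology region TTTGAA and 29 (69.0%) held CCAAT, against 18.1% and 37.9% of all promoters of that length. Among 35 replication genes 5 (14.3%) held TTTGAA. Capitals mark matches to the homology region, the CCAAT box or the E2F site on either strand, and the windows are chr10:69352913-69353162 and chr11:99024190-99024439, both on the - strand.
Cdk1: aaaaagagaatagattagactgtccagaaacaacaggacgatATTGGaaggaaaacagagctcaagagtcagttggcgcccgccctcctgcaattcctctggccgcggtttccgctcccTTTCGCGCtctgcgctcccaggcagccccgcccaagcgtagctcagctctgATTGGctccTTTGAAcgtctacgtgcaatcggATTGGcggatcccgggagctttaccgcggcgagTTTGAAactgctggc
Top2a: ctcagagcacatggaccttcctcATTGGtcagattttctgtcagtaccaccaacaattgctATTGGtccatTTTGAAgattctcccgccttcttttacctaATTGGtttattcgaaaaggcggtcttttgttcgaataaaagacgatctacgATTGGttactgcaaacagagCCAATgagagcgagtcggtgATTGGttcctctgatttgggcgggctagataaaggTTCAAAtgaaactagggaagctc

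**Figure D2:**
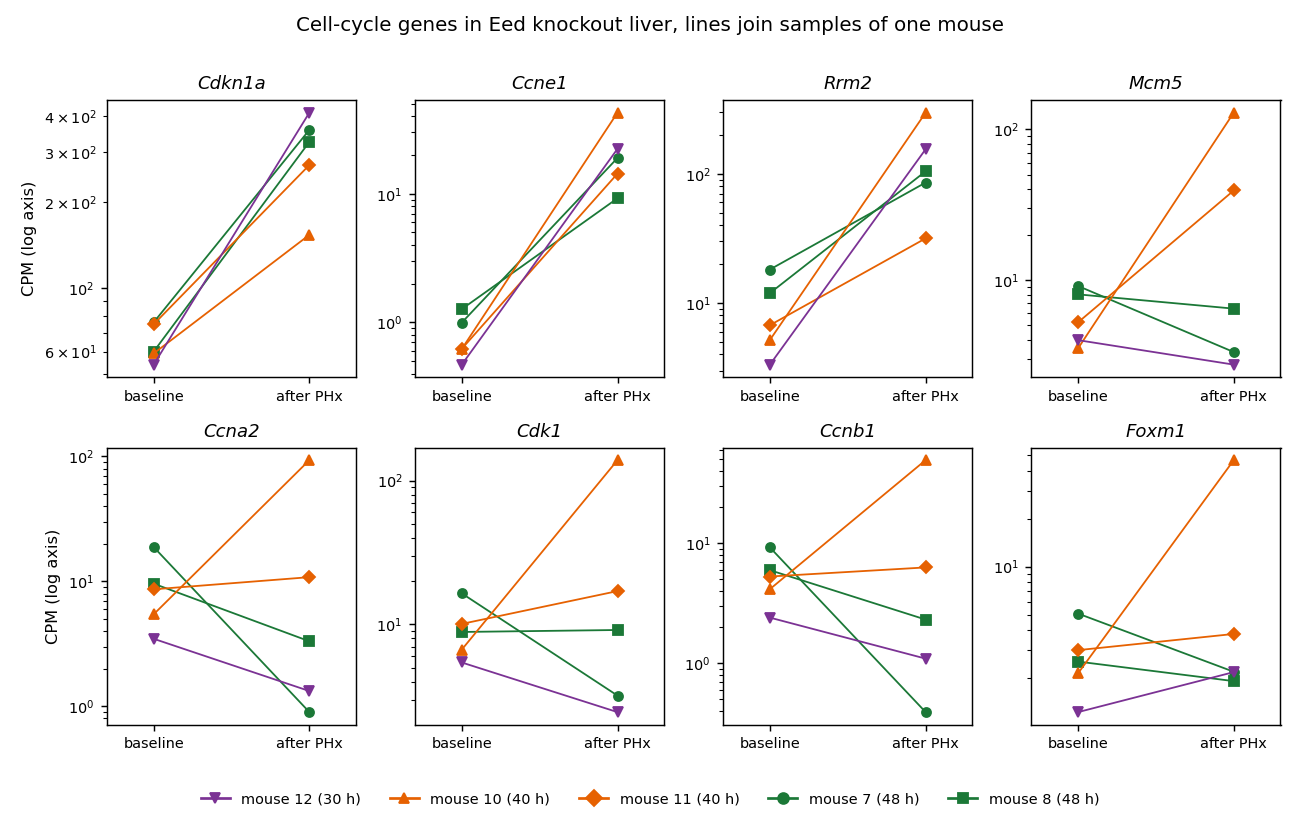
CPM (log axis) of 8 cell-cycle genes at baseline and after PHx in Eed knockout liver, with a line for each mouse, coloured by collection time. Cdkn1a, Ccne1 and Rrm2 rise in all 5 mice, Mcm5 is higher in the 40 h mice 10 and 11, and Ccna2, Cdk1, Ccnb1 and Foxm1 are far highest in mouse 10.

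Targets of p53 were among the genes that rose. Of 24 p53 targets and Cdk inhibitors, 13 were higher and 1 lower (median 0.98). Tnfrsf10b, a death receptor, stood at 3.82, 2.16, 1.72, 2.95 and 1.27 CPM at baseline and 9.92, 23, 10.7, 17.8 and 3.74 CPM after PHx (log2 fold change 2.45, SE 0.50, adjusted p = 0.00251), and only mouse 12 among the libraries after PHx came within the baseline range. Pmaip1, which encodes the pro-apoptotic protein NOXA, stood at 9.79, 4.82, 5.55, 3.45 and 2.49 CPM at baseline and 21.8, 205, 12.8, 59.3 and 6.44 CPM after PHx (log2 fold change 3.55, SE 0.76, adjusted p = 0.00322), highest in mouse 8. Sesn2, a sestrin induced by p53 and by amino acid shortage, stood at 8.3, 8.45, 7.66, 7.77 and 11.3 CPM at baseline and 39.3, 78.3, 14.6, 67.9 and 28.4 CPM after PHx, with no overlap (log2 fold change 2.40, SE 0.38, adjusted p = 0.000615). Gdf15, a stress cytokine, was the member that fell, at 171, 146, 154, 87.2 and 160.0 CPM at baseline and 41.8, 19, 14, 17.3 and 9.89 CPM after PHx, also with no overlap (log2 fold change -2.81, SE 0.54, adjusted p = 0.00169).

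In homologous recombination and crosslink repair 6 of 22 genes were higher and none lower (median 1.90). The count was 3 with the mouse as a block, without the library of mouse 10 after PHx, and without the baseline library of mouse 10 or of mouse 11, and it was 2 with the block in the KO libraries alone. Rad18, a ubiquitin ligase of damage tolerance, was high in all 5 mice, at 2.92, 2.45, 1.55, 1.37 and 1.17 CPM at baseline and 26.1, 15.7, 12.9, 6.73 and 15.4 CPM after PHx (log2 fold change 3.01, SE 0.46, adjusted p = 0.00045). Brca1 held 18.1 and 18 CPM in mice 10 and 11 and 0.663 to 4.33 CPM in the others after PHx (log2 3.00, adjusted p = 0.017), and its call was lost with the mouse as a block (adjusted p = 0.0677) and with the mouse as a block in the KO libraries alone (adjusted p = 0.0873).

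Ribosome biogenesis genes rose in 23 of 30 members and fell in none (median 1.10), and 29 had a positive log2 fold change. Mouse 10 was the lowest library after PHx for 23 of the 30, with 10 above every baseline library, against 29 in mice 7 and 12, 27 in mouse 8 and 19 in mouse 11. Of all genes 26.3% were above every baseline library in mouse 10, against 33.3% of this list, and 39% and 32.6% in mice 7 and 12, against 96.7% of this list in both. Nop58, a core protein of box C/D small nucleolar particles, stood at 21.3, 31.3, 14.9, 11.3 and 7.79 CPM at baseline and 70.03, 61, 24.9, 33.8 and 91.6 CPM after PHx (log2 fold change 1.70, SE 0.36, adjusted p = 0.00302). Ncl, which encodes nucleolin, stood at 153, 158, 91.1, 72.5 and 59.2 CPM at baseline and 384, 358, 119.5, 158 and 339.9 CPM after PHx (log2 fold change 1.35, SE 0.36, adjusted p = 0.011). Heatr1, a small-subunit processome protein, stood at 11.3, 13.9, 11.1, 9.64 and 6.9 CPM at baseline and 32.9, 29.6, 13.8, 21.3 and 51.6 CPM after PHx (log2 fold change 1.5, SE 0.31, adjusted p = 0.00253). Mouse 10 was the lowest after PHx in each of the 3 genes, within the range of the baseline libraries. In a fit of the KO libraries alone with the mouse as a block 15 members were higher. In 25 promoters of the list, 5 (20.0%) held the E-box CACGTG, against 7.2% of all promoters.

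Developmental genes known to be regulated by PRC2 had their largest changes in 2 mice. Of 65 members 45 passed the filter on low counts, of which 12 were higher and 1 lower (median 0.78), but with the mouse as a block 4 were higher and none lower. Without the library after PHx of mouse 7 or of mouse 12 the higher count was 5 or 6, and without the baseline library of mouse 7, 8, 11 or 12 it was 7, 5, 6 or 5. The 12 were Hoxc8, Pax3, Pax6, Pax9, Tbx15, Tbx20, Nkx2-2, Irx2, Irx3, Foxc1, Foxf1 and Isl1, and Hoxc6 was lower. The Hoxc6 call was lost in 9 of the 18 alternatives, among them each fit without the baseline library of mouse 10, 11 or 12 or the library after PHx of mouse 8 or 11. Of the 20 members below the filter 19 had a higher pooled CPM after PHx than at baseline. These values rest on few counts pooled over 5 mice, so single libraries can set their direction. The share over all genes below the filter was not calculated, so no result is drawn from them. Nkx2-2, a neural and pancreatic homeobox factor, stood at 0.398, 0.296, 0.069, 0 and 0.0939 CPM at baseline and 3.3, 0.637, 0.687, 0.195 and 3.41 CPM after PHx (log2 fold change 3.20, SE 0.88, adjusted p = 0.0146), with mice 7 and 12 highest. Isl1, a LIM homeobox factor, held 11.2 and 13.7 CPM in mice 7 and 12 and 0.473 to 2.09 CPM in the others after PHx, against 0.73 to 1.07 CPM at baseline (log2 2.58, adjusted p = 0.0373). Its call was lost with the mouse as a block (adjusted p = 0.247), with the mouse as a block in the KO libraries alone (adjusted p = 0.248) and without the baseline libraries of mice 7, 8, 10, 11 or 12 or the library after PHx of mouse 7 or 12 taken singly (adjusted p from 0.0679 to 0.0947). The list mean of log2(CPM + 1) changed by 0.82 and 0.78 in mice 7 and 12 and by 0.32, 0.03 and -0.07 in mice 8, 10 and 11. The 48 h mouse 7 and the 30 h mouse 12 had the largest changes of this list, above the other 48 h mouse.

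Fetal liver and oncofetal genes rose in 13 of 21 tested members, and none fell (median 1.59). With the mouse as a block 9 were higher, and with the block in the KO libraries alone 8. Afp, alpha-fetoprotein, stood at 1.33, 1.35, 0.552, 0.706 and 1.41 CPM at baseline and 1.23, 51.5, 35, 150.5 and 2.08 CPM after PHx (log2 fold change 5.49, SE 1.06, adjusted p = 0.0018). Mice 8, 10 and 11 were high, while mouse 7 stayed within the baseline range and mouse 12 just above it. That call was lost with the mouse as a block in the KO libraries alone (adjusted p = 0.0688). Igf2, a fetal growth factor, stood at 0.332, 0.676, 1.76, 0.955 and 2.02 CPM at baseline and 7.85, 19, 12.6, 38.1 and 2.08 CPM after PHx (log2 fold change 3.79, SE 0.70, adjusted p = 0.00138), with mouse 12 near its own baseline. Ly6d, a small surface protein of progenitor cells, stood at 79.5, 26.1, 13.9, 20.2 and 11.9 CPM at baseline and 86.7, 420.4, 145, 405 and 63.2 CPM after PHx (log2 fold change 2.88, SE 0.69, adjusted p = 0.00579). Of the imprinted genes, Peg3 was high in mice 8 and 11 (log2 3.38, adjusted p = 0.0133) and H19 highest in mouse 11 (log2 3.23, adjusted p = 0.00691). The other higher members were Gpc3, Igf2bp1, Igf2bp2, Hmga1, Hmga2, Aldoa, Pkm and Hk2. The Peg3 call was lost with the mouse as a block (adjusted p = 0.19), with the mouse as a block in the KO libraries alone (adjusted p = 0.165) and without the library after PHx of mouse 11 (adjusted p = 0.0525), and the H19 call with the mouse as a block (adjusted p = 0.129) and with the mouse as a block in the KO libraries alone (adjusted p = 0.145).

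Of 21 hepatocyte transcription factors 2 were higher and 4 lower (median -0.40), against 17.5% and 12.1% of all genes. Cebpa, a factor of mature hepatocytes, stood at 225, 236, 202, 313 and 258 CPM at baseline and 98.3, 56.6, 108, 89.1 and 180.1 CPM after PHx, with no overlap of the groups (log2 fold change -1.22, SE 0.25, adjusted p = 0.00252). Nr0b2, the bile acid induced repressor SHP, went from 83.2 ± 29.9 to 29.1 ± 9.91 CPM (SD, n = 5 each; log2 -1.51, adjusted p = 0.00412). Hnf4a, a central hepatocyte factor, stood at 405, 702, 527, 702 and 851 CPM at baseline and 418, 343, 562, 532 and 617 CPM after PHx and was not called (log2 fold change -0.37, SE 0.22, adjusted p = 0.204). Onecut1 was called lower (log2 -1.88, adjusted p = 0.0384), but the call was lost with scaling by library size alone (adjusted p = 0.0588), with the mouse as a block (adjusted p = 0.132), in a fit of the KO libraries alone (adjusted p = 0.0542), with the mouse as a block in the KO libraries alone (adjusted p = 0.144) and without the baseline libraries of mice 7, 8, 10 or 11 or the library after PHx of mouse 7, 8, 11 or 12 taken singly (adjusted p from 0.0519 to 0.0999). Other called members included Nr5a2, lower, and Cebpd, higher. Without the library of mouse 10 after PHx 8 members were lower, and with scaling by library size alone 2. The higher count was 1 in both block fits, and without the baseline library of mouse 7, 8, 10 or 12 or the library after PHx of mouse 7 or 12.

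Secreted plasma proteins fell in 13 of 32 members and rose in none by edgeR (median -0.66). With the 10 KO libraries fitted alone 4 fell. Without the library after PHx of mouse 7 or 8 there were 7, and without that of mouse 10 there were 20. With scaling by library size alone 3 rose, and by DESeq2 or without mouse 10 or 11 after PHx 1 did. Serpina1c, an alpha-1-antitrypsin, stood at 1953, 2865, 2821, 3301 and 3394 CPM at baseline and 1079, 522, 1394, 720.3 and 2045 CPM after PHx (log2 fold change -1.32, SE 0.31, adjusted p = 0.00506). Mouse 12 was the highest after PHx and lay above mouse 7's baseline value, so the groups overlapped in that pair. Apoa2, an apolipoprotein of high-density lipoprotein, went from 5234 ± 1141 to 2332 ± 1299 CPM (SD, n = 5 each; log2 -1.17, adjusted p = 0.00839), a call lost in a fit of the KO libraries alone (adjusted p = 0.0676). Albumin (Alb) held 51203 to 78144 CPM at baseline and 27206 to 66619 CPM after PHx, and was not called (log2 -0.62, adjusted p = 0.0989). At 48 h 23 members were lower and 3 higher, against 19.5% and 23.1% of all genes. Without mouse 8 the lower count at 48 h was 10 (31.2%, against 15.8% of all genes). The block gave 5 lower (15.6%, against 5.99% of all genes) and 0 higher by edgeR at 48 h. At an unadjusted p under 0.05 it gave 16 lower (50%, against 16.2%) and 0 higher.

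Of 35 cytochrome P450 and conjugation genes, which act on drugs and other foreign compounds, 16 were lower and none higher (median -1.32), against 24 lower with the mouse as a block and 9 without the library of mouse 7 after PHx. Cyp2f2, a periportal P450, stood at 715, 1091, 906, 1269.7 and 1376 CPM at baseline and 43, 22.8, 250.2, 166 and 527 CPM after PHx (log2 fold change -2.41, SE 0.67, adjusted p = 0.0129), with the 48 h mice 7 and 8 the lowest and mouse 12 the highest after PHx. Ugt2b1, a glucuronosyltransferase, stood at 159, 418, 258, 354 and 244 CPM at baseline and 14.7, 10.5, 37.7, 16.8 and 133 CPM after PHx (log2 fold change -2.75, SE 0.66, adjusted p = 0.00595). Cyp2c70, which makes muricholic acids in mice, went from 484 ± 115 to 109 ± 96.2 CPM (SD, n = 5 each; log2 -2.16, adjusted p = 0.0056). Cyp3a11, a major drug-metabolising P450, held 1186 to 11204 CPM after PHx against 10363 to 13484 CPM at baseline and was not called (log2 -1.18, adjusted p = 0.0901). The list mean of log2(CPM + 1) changed by -1.69, -2.40, -0.74, -1.79 and -0.72 in mice 7, 8, 10, 11 and 12, so that it was lower in all 5.

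Bile acid genes followed the same direction, with 13 of 26 lower and none higher (median -1.18). Abcb11, the bile salt export pump, stood at 721, 827, 822, 648 and 627 CPM at baseline and 38.4, 35.2, 229, 282 and 194 CPM after PHx (log2 fold change -2.23, SE 0.52, adjusted p = 0.00492). Hsd3b7, an early enzyme of bile acid synthesis, stood at 296, 390.1, 415, 414 and 531 CPM at baseline and 58.6, 67.3, 130.5, 107 and 105 CPM after PHx (log2 fold change -2.13, SE 0.30, adjusted p = 0.000331). Neither gene's groups overlapped, and the 48 h mice were lowest in both. Cyp7a1, the rate-limiting enzyme, divided the mice instead, at 6.94, 14.8, 11, 10.01 and 18.4 CPM at baseline and 0.0899, 0.11, 60.7, 3.75 and 0.663 CPM after PHx. It lay above the baseline range in mouse 10 alone and near 0 in mice 7, 8 and 12 (log2 fold change 0.09, SE 1.39, adjusted p = 0.966). At 48 h against all baseline libraries its log2 fold change was -6.85 (adjusted p = 0.00742), a call lost with the mouse as a block (adjusted p = 0.0578) and without mouse 7 (0.0693) or 8 (0.0620). Without the library of mouse 10 after PHx its log2 fold change was -3.39 over all times (adjusted p = 0.0618).

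Sterol and fatty acid synthesis fell in 15 of 30 genes and rose in none (median -1.04). With scaling by library size alone 8 were lower and 1 higher. The 15 cover most steps from acetyl-CoA to cholesterol (Hmgcs1, Mvk, Pmvk, Idi1, Fdps, Fdft1, Sqle, Lss, Cyp51, Msmo1, Nsdhl, Sc5d and Dhcr7), with Insig1 and Scd1. Idi1, isopentenyl-diphosphate isomerase, stood at 240.3, 230.1, 189, 256 and 248 CPM at baseline and 32.4, 55.6, 54.6, 99.5 and 45.8 CPM after PHx (log2 fold change -2.01, SE 0.41, adjusted p = 0.00254). Sc5d, a late desaturase of the pathway, stood at 398, 436, 449.7, 480.3 and 593 CPM at baseline and 49.7, 70.2, 268, 155 and 54.2 CPM after PHx (log2 fold change -1.98, SE 0.47, adjusted p = 0.00538). In both genes every library after PHx was lower than every baseline library. Scd1, the desaturase that makes oleate, stood at 5837, 6284, 9681, 11708 and 2471 CPM at baseline and 1079.6, 301, 785, 471 and 3555 CPM after PHx (log2 fold change -2.54, SE 0.57, adjusted p = 0.00398). It was lower in 4 mice, while mouse 12 (30 h) was above its own baseline. The Idi1 promoter (chr13:8885356-8885605, + strand) is printed with CCAAT matches in capitals, since 18 of 22 promoters of this list (81.8%) held CCAAT against 37.9% of all.
Idi1: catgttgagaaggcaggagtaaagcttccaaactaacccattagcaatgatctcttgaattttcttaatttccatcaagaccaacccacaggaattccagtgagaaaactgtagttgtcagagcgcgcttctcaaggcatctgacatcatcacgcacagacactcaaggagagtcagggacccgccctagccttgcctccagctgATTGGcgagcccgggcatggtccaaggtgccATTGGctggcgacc

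Of 24 glucose and glycogen genes 7 were lower and 2 higher (median -0.32). Pdk4, which inhibits pyruvate dehydrogenase, stood at 56.6, 26.9, 30.8, 23.9 and 20.4 CPM at baseline and 1691, 1461, 28.3, 335 and 1615 CPM after PHx (log2 fold change 5.01, SE 1.09, adjusted p = 0.00349). In mouse 10 Pdk4 did not exceed its own baseline. Pck1, of gluconeogenesis, held 1382 to 3379 CPM after PHx and 1925 to 4164 CPM at baseline (log2 -0.23, adjusted p = 0.634). The lower members included Gckr, G6pc, Pygl, Ppp1r3b, Ppp1r3g and Pklr. The higher count was 1 in the KO libraries alone, and without the baseline library of mouse 7, 8, 10 or 11 or the library after PHx of mouse 7 or 12.

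Urea cycle and amino acid catabolism genes fell in 10 of 28 and rose in 1 (median -0.77). Without the library after PHx of mouse 7 or 8 the lower count was 6, and with the KO libraries fitted alone 5. Scaling by library size alone gave 2 higher, and none was called higher with the mouse as a block, in the KO libraries alone or without mouse 12 after PHx. Otc, ornithine transcarbamylase, stood at 389.9, 469, 382, 364 and 337 CPM at baseline and 89.8, 31.9, 95.8, 52.1 and 296 CPM after PHx (log2 fold change -1.78, SE 0.41, adjusted p = 0.0046). Prodh, proline dehydrogenase, went from 114 ± 42.5 to 34.4 ± 20.7 CPM (SD, n = 5 each; log2 -1.73, adjusted p = 0.00704), and Amdhd1, of histidine breakdown, from 274 ± 60.1 to 102 ± 52.4 CPM (log2 -1.43, adjusted p = 0.0049). Cps1, the first enzyme of the urea cycle, stood at 2412, 3442, 4696, 4113 and 4308 CPM at baseline and 536, 451, 5006, 3187 and 2802 CPM after PHx (log2 fold change -0.66, SE 0.50, adjusted p = 0.319). At 48 h its log2 fold change was -2.94 (adjusted p = 0.000235).

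**Figure D3:**
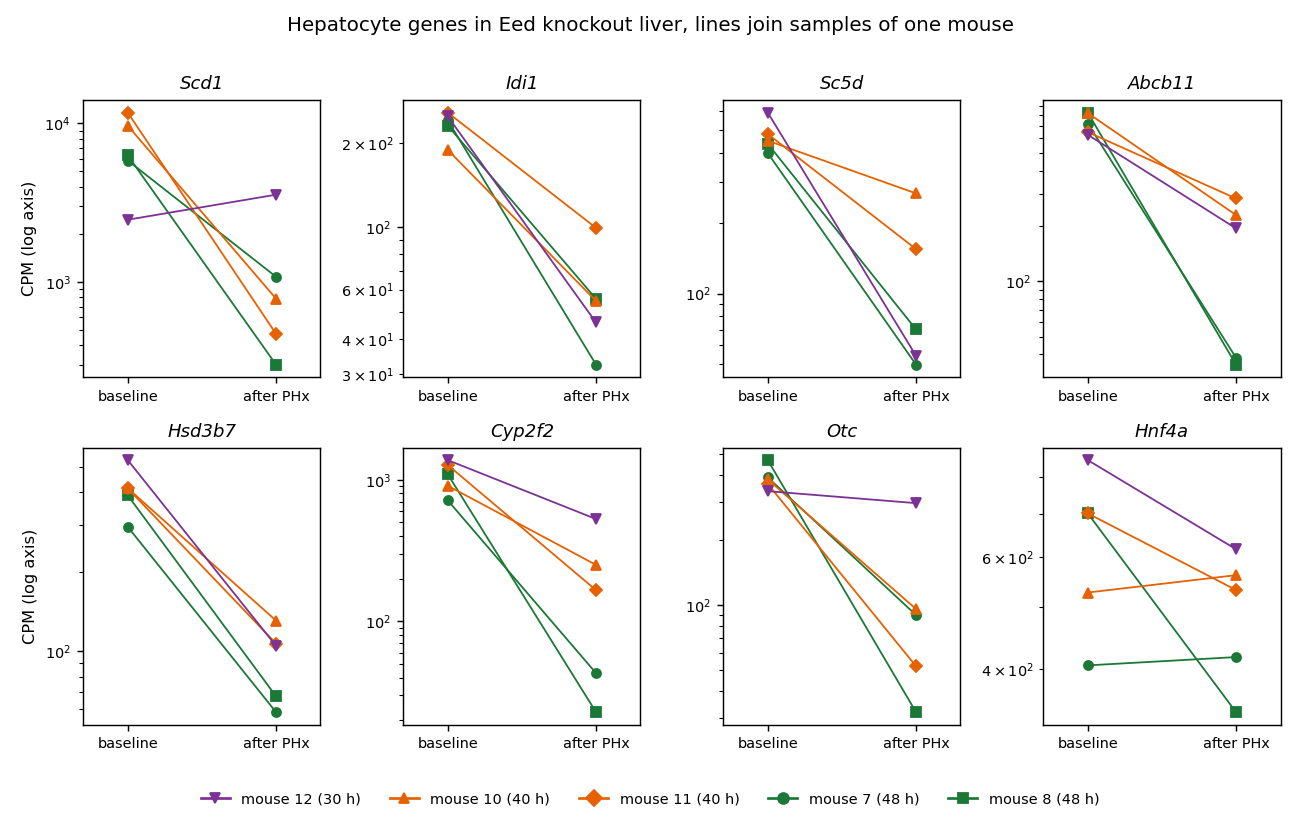
CPM (log axis) of 8 hepatocyte genes at baseline and after PHx in Eed knockout liver, with a line for each mouse, coloured by collection time. Idi1, Sc5d, Abcb11, Hsd3b7, Cyp2f2 and Otc are lower after PHx in all 5 mice, Scd1 in 4, and Hnf4a in 3.

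Of 28 fatty acid oxidation genes and PPAR-alpha targets 8 were higher and 1 lower (median 0.08). Plin2, which coats lipid droplets, stood at 662, 587, 484, 415 and 343 CPM at baseline and 2206, 2229, 549, 779 and 2882 CPM after PHx (log2 fold change 1.79, SE 0.51, adjusted p = 0.0136). Angptl4, a lipoprotein lipase inhibitor, went from 84.8 ± 42.6 to 284 ± 161 CPM (SD, n = 5 each; log2 1.75, adjusted p = 0.0101). Acot2, a mitochondrial acyl-CoA thioesterase, stood at 4.61, 3.25, 6.41, 7.56 and 12.3 CPM at baseline and 24.4, 78.1, 25, 45.7 and 37.6 CPM after PHx (log2 fold change 2.63, SE 0.48, adjusted p = 0.0014), with no overlap. Cpt1a, Acadl, Acot1, Vnn1 and Pdk4 were the other higher members and Acaa1b the lower one. The lower count moved in 13 of the 18 alternatives. It was 0 with RLE scaling, scaling by library size alone or no filter, in both fits of the KO libraries alone, and without the baseline library of mouse 10, 11 or 12 or the library after PHx of mouse 7, 8 or 11. It was 2 with the mouse as a block and 3 without mouse 10 after PHx.

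Acute phase genes rose in 11 of 25 members and fell in 1, Crp (median 0.89). This lower count moved in 14 of the 18 alternatives. It was 0 without any one baseline library, without mouse 7, 8 or 12 after PHx, with scaling by library size alone and in the KO libraries alone, 2 by DESeq2 and in both block fits, and 3 without mouse 10 after PHx. Lcn2, lipocalin 2, stood at 107, 86.5, 21.8, 25.1 and 15.6 CPM at baseline and 3375, 1430.2, 623, 466 and 1906 CPM after PHx (log2 fold change 4.93, SE 0.76, adjusted p = 0.000518). Mt1 and Mt2, metallothioneins that bind zinc, were highest in mice 7 and 12. Mt2 stood at 33, 21.6, 13.6, 13.6 and 10.3 CPM at baseline and 1642, 218, 103, 62.2 and 2217 CPM after PHx (log2 fold change 5.53, SE 1.11, adjusted p = 0.00222), and Mt1 changed alike (log2 5.03, adjusted p = 0.00329). Saa2, serum amyloid A2, stood at 120.2, 288, 33.5, 37.1 and 34.6 CPM at baseline and 549, 194, 1635, 483 and 561 CPM after PHx (log2 fold change 2.74, SE 0.67, adjusted p = 0.0062), and mouse 8 was below its own baseline. Serpina3n, Orm1, Orm2, Orm3, Itih3, Fgl1 and Saa1 were the other members that rose. Hp, haptoglobin, was not called (log2 0.12, adjusted p = 0.769), nor was the iron hormone Hamp (log2 0.42, adjusted p = 0.708).

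Of 24 immediate early and growth signalling genes 9 were lower (Fos, Fosb, Jun, Atf3, Egr1, Ier2, Dusp1, Dusp6 and Egfr) and 6 higher (Fosl1, Ier3, Spry2, Hbegf, Hgf and Etv4), with a median of -0.31. The higher count was 3 with the mouse as a block in the KO libraries alone. Etv4, an ETS factor downstream of receptor tyrosine kinases, stood at 0.564, 0.465, 0.414, 0.332 and 0.188 CPM at baseline and 17.2, 14.8, 1.37, 1.47 and 3.46 CPM after PHx (log2 fold change 4.26, SE 1.08, adjusted p = 0.00995), highest in the 48 h mice. Circadian genes were higher in 7 of 18 and lower in none by edgeR (median 0.80). The lower count was 1 by DESeq2 and without the baseline library of mouse 12, and 2 without mouse 11 after PHx or with the mouse as a block. Per2, a clock repressor, stood at 3.85, 6.93, 3.76, 7.15 and 5.3 CPM at baseline and 28.4, 26.6, 21.5, 26.5 and 40.5 CPM after PHx, with no overlap (log2 fold change 2.41, SE 0.37, adjusted p = 0.000463). Per1, its relative, stood at 6.17, 12.8, 5.59, 12 and 26.8 CPM at baseline and 104, 75.9, 19.6, 36.7 and 222 CPM after PHx (log2 fold change 2.85, SE 0.67, adjusted p = 0.00498), highest in mouse 12. Dbp, an output factor of the clock, was 2.26 on the log2 scale (adjusted p = 0.155), and with the mouse as a block 2.85 (adjusted p = 0.00886). Arntl, the activator, was -0.99 (adjusted p = 0.0821), and with the block -1.14 (adjusted p = 0.012). The hour of day of each collection is not given in the labels, and its part in these values was not tested. The Per1 promoter (chr11:69098699-69098948, + strand) holds 1 E-box, CACGTG, in capitals, as do 5 of 15 circadian promoters (33.3%) and 7.2% of all.
Per1: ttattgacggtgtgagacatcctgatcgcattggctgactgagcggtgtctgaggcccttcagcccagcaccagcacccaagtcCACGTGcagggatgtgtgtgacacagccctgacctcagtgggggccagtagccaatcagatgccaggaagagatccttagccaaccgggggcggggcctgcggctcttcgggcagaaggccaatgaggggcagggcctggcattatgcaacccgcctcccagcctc

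Stress genes moved both ways. Of 24 unfolded protein and amino acid stress genes 3 were higher and 8 lower (median -0.49). The higher count was 6 without the library of mouse 10 after PHx or with scaling by library size alone, and 5 with DESeq2. Among the higher ones, Psat1 and Asns belong to the amino acid response. Psat1, of serine synthesis, stood at 1.66, 2.24, 1.48, 1.5 and 0.845 CPM at baseline and 35.5, 49.2, 9.88, 17.4 and 7.53 CPM after PHx (log2 fold change 3.95, SE 0.59, adjusted p = 0.000433), and Asns, asparagine synthetase, at 4.02, 2.87, 3.52, 3.66 and 2.77 CPM at baseline and 14.7, 14.7, 12.1, 13.4 and 8.81 CPM after PHx (log2 fold change 1.92, SE 0.41, adjusted p = 0.00296), both with no overlap. The lower ones were the chaperones Hsp90b1, Pdia4, Pdia6, Calr, Sdf2l1, Creld2 and Hyou1, and Ddit3, which encodes CHOP (log2 -2.03, adjusted p = 0.0117). The Ddit3 call was lost with the mouse as a block (adjusted p = 0.0651), with the mouse as a block in the KO libraries alone (adjusted p = 0.11) and without the baseline library of mouse 8 (adjusted p = 0.0505). The lower count was 5 with scaling by library size alone, without the baseline library of mouse 8 and without its library after PHx, and 3 with the mouse as a block in the KO libraries alone. Nrf2-linked genes were higher in 6 of 20 and lower in 5 (median 0.07), and without the library after PHx of mouse 7 or 8 each count was 3. Without one baseline library the higher count was 3 for mouse 8 or 10, and the lower count 3 for mouse 7, 11 or 12. The lower count was also 3 without mouse 11 after PHx and with scaling by library size alone, and 1 in the KO libraries alone, where the block left 1 higher. Hmox1, heme oxygenase 1, went from 24.7 ± 4.22 to 109 ± 75.7 CPM (SD, n = 5 each; log2 2.13, adjusted p = 0.0044), and Slc7a11, the cystine carrier, from 0.0355 ± 0.0341 to 2.05 ± 1.91 CPM (log2 5.58, adjusted p = 0.0112), while Gsta2 fell (log2 -1.75, adjusted p = 0.0126). The Gsta2 call was lost in a fit of the KO libraries alone (adjusted p = 0.0611). Oxidative phosphorylation subunits were lower in 8 of 28 and higher in none (median -0.30), a count that ran from 0 without mouse 7 or 8 after PHx to 13 without mouse 10 after PHx. It was 1 without mouse 11 after PHx or the baseline of mouse 12, 2 without the baseline of mouse 10 or 11, and 4 without that of mouse 8. Scaling by library size alone or no filter on low counts gave 2, and the KO libraries alone 0 with or without the block.

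Male-biased liver genes fell in 18 of 29 tested members and rose in none (median -1.37). All 29 were below the baseline of the same mouse in mice 8, 10 and 11, 27 in mouse 7 and 26 in mouse 12, against 46.6% to 53.2% of all genes. Hsd3b5, Elovl3 and Selenbp2, described above, belong to this list, with Mup2, Mup3, Mup17, Mup20 and Mup21 of the major urinary proteins and Slco1a1 (log2 -2.80, adjusted p = 0.0199). The Slco1a1 call was lost without the library after PHx of mouse 7 or 8 taken singly (adjusted p from 0.0552 to 0.0577). Of 23 female-biased genes tested, 3 were higher, among them Sult1e1 and Acot3, and 1 lower, Adh6a (median 0.31). The lower count was 2 with the mouse as a block and 3 without mouse 10 or 12 after PHx. Sult1e1, estrogen sulfotransferase, stood at 1.69, 1.56, 0.0345, 0.125 and 0.469 CPM at baseline and 56.8, 122, 1.6, 8.59 and 12.6 CPM after PHx (log2 fold change 5.68, SE 1.45, adjusted p = 0.0083), and Acot3 at 0.763, 0.718, 3.07, 8.93 and 16.4 CPM at baseline and 47.8, 41.8, 44.1, 34.1 and 45.1 CPM after PHx (log2 fold change 2.84, SE 0.67, adjusted p = 0.0051).

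Matrix genes and markers of other liver cells changed in part. Called lower were 13.3% of matrix genes and 26.7%, 25% and 33.3% of stellate, Kupffer and sinusoidal markers, against 12.1% of all genes. Called higher were 33.3% of matrix genes and 6.67%, 6.25% and 6.67% of those markers, against 17.5% of all genes. Of 30 matrix genes 10 were higher and 4 lower (median 0.13). The higher count was 4 or 5 without mouse 8 after PHx, without the baseline library of mouse 8, 10, 11 or 12, with no filter on low counts or with the mouse as a block in the KO libraries alone, and the lower count 2 without mouse 7 or 8 after PHx. Lox, a collagen cross-linking enzyme, stood at 3.58, 1.94, 0.966, 0.665 and 0.423 CPM at baseline and 18.2, 26.9, 1.26, 1.25 and 10.5 CPM after PHx (log2 fold change 2.93, SE 0.76, adjusted p = 0.00854), high in mice 7, 8 and 12. Mmp13, a collagenase, stood at 3.19, 1.23, 1.48, 3.66 and 0.751 CPM at baseline and 0.03, 0.022, 0.114, 0.306 and 0 CPM after PHx (log2 fold change -4.34, SE 0.93, adjusted p = 0.00308), below every baseline library in all 5 mice. Col1a1 was not called (log2 0.41, adjusted p = 0.5). Among 15 stellate cell and fibroblast markers 4 were lower (2 without mouse 7 after PHx or in the KO libraries alone) and 1 higher (median -0.28). These were Lrat, the retinol esterase of resting stellate cells (log2 -1.61, adjusted p = 0.00578), Reln, Hand2 (log2 -1.27, adjusted p = 0.00799) and Ngfr, with Pdgfra higher (log2 1.39, adjusted p = 0.00839).

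Of 16 Kupffer cell and macrophage markers 4 were lower (Adgre1, Clec4f, Csf1r and Lyz2) and Marco higher (median -0.79). Without the library after PHx of mouse 7, 8 or 12, or with scaling by library size alone, the lower count was 2, and without mouse 8 after PHx Marco was not called. Their summed level was 484 to 895 CPM at baseline and 241 to 815 CPM after PHx. Lyz2, lysozyme, stood at 154, 143, 106, 110.0 and 89.2 CPM at baseline and 12.9, 34.1, 57.6, 47.8 and 42.3 CPM after PHx (log2 fold change -1.63, SE 0.39, adjusted p = 0.0057). Of 15 sinusoidal endothelial markers 5 were lower and 1 higher (median -0.87), with sums of 471 to 591 CPM and 185 to 443 CPM. Oit3 fell (from 26.1 ± 3.83 to 9.31 ± 5.01 CPM, SD, n = 5 each; log2 -1.49, adjusted p = 0.0046) and Lyve1 rose (from 6.16 ± 1.67 to 35.1 ± 21.7 CPM, SD, n = 5 each; log2 2.51, adjusted p = 0.0076). The lower count was 2 with scaling by library size alone or in the KO libraries alone, 8 with the mouse as a block, 3 without mouse 7 or 8 after PHx or the baseline of mouse 10, 9 without mouse 10 after PHx and 8 without mouse 11. T and B lymphocyte markers fell in 7 of 9 tested (median -2.07), with sums of 14.2 to 18.9 CPM at baseline and 1.41 to 6.64 CPM after PHx. With the filter on CPM 2 were called lower, but that filter can leave genes of so low a level untested. It ended 0 calls among the named genes that it tested, so the smaller count need not mean lost calls. Ighm, the immunoglobulin M heavy chain, stood at 8.69, 7.73, 6.38, 8.56 and 6.34 CPM at baseline and 1.02, 0.835, 2.98, 2.28 and 2.27 CPM after PHx (log2 fold change -2.01, SE 0.43, adjusted p = 0.00293). Of 7 neutrophil markers 1 was higher (14.3%, against 17.5% of all genes, median 2.52), with sums of 4.08 to 12.4 CPM and 6.87 to 87.8 CPM. The higher count was 4 without mouse 10 or 11 after PHx, 3 with scaling by library size alone or DESeq2, and 2 with the mouse as a block or without the baseline library of mouse 7 or 8. Without mouse 7 after PHx none was called. At 48 h 6 of the 7 were higher (23.1% of all genes were), and 2 without mouse 7 or with the block.

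Cholangiocyte and progenitor markers rose in 6 of 12 tested and fell in none (median 1.08), with sums of 127 to 464 CPM at baseline and 202 to 913 CPM after PHx. Epcam, an epithelial adhesion molecule, stood at 3.25, 1.99, 1.83, 2.78 and 2.02 CPM at baseline and 27.5, 32.9, 2.82, 20.2 and 6.82 CPM after PHx (log2 fold change 2.93, SE 0.62, adjusted p = 0.00292). Krt7, a keratin of bile ducts, stood at 0.896, 0.549, 0.517, 1.95 and 1.97 CPM at baseline and 1.83, 22.7, 2.06, 16 and 3.74 CPM after PHx (log2 fold change 2.98, SE 0.68, adjusted p = 0.00454), highest in mice 8 and 11. Their list mean of log2(CPM + 1) changed by 1.80 and 1.66 in mice 8 and 11 and by 0.63, 0.41 and 0.37 in mice 7, 10 and 12. Erythroid Alas2 fell (log2 -2.05, adjusted p = 0.00107), the only one of 7 erythroid markers called. Of 10 pancreatic acinar genes Cela1 alone was tested, and Prss2, Cpa1, Cpb1, Ctrb1, Pnlip, Amy2a5 and Cel were at 0 in all 10 KO libraries. The part of these other cell types in the results above was not tested.

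**Figure D4:**
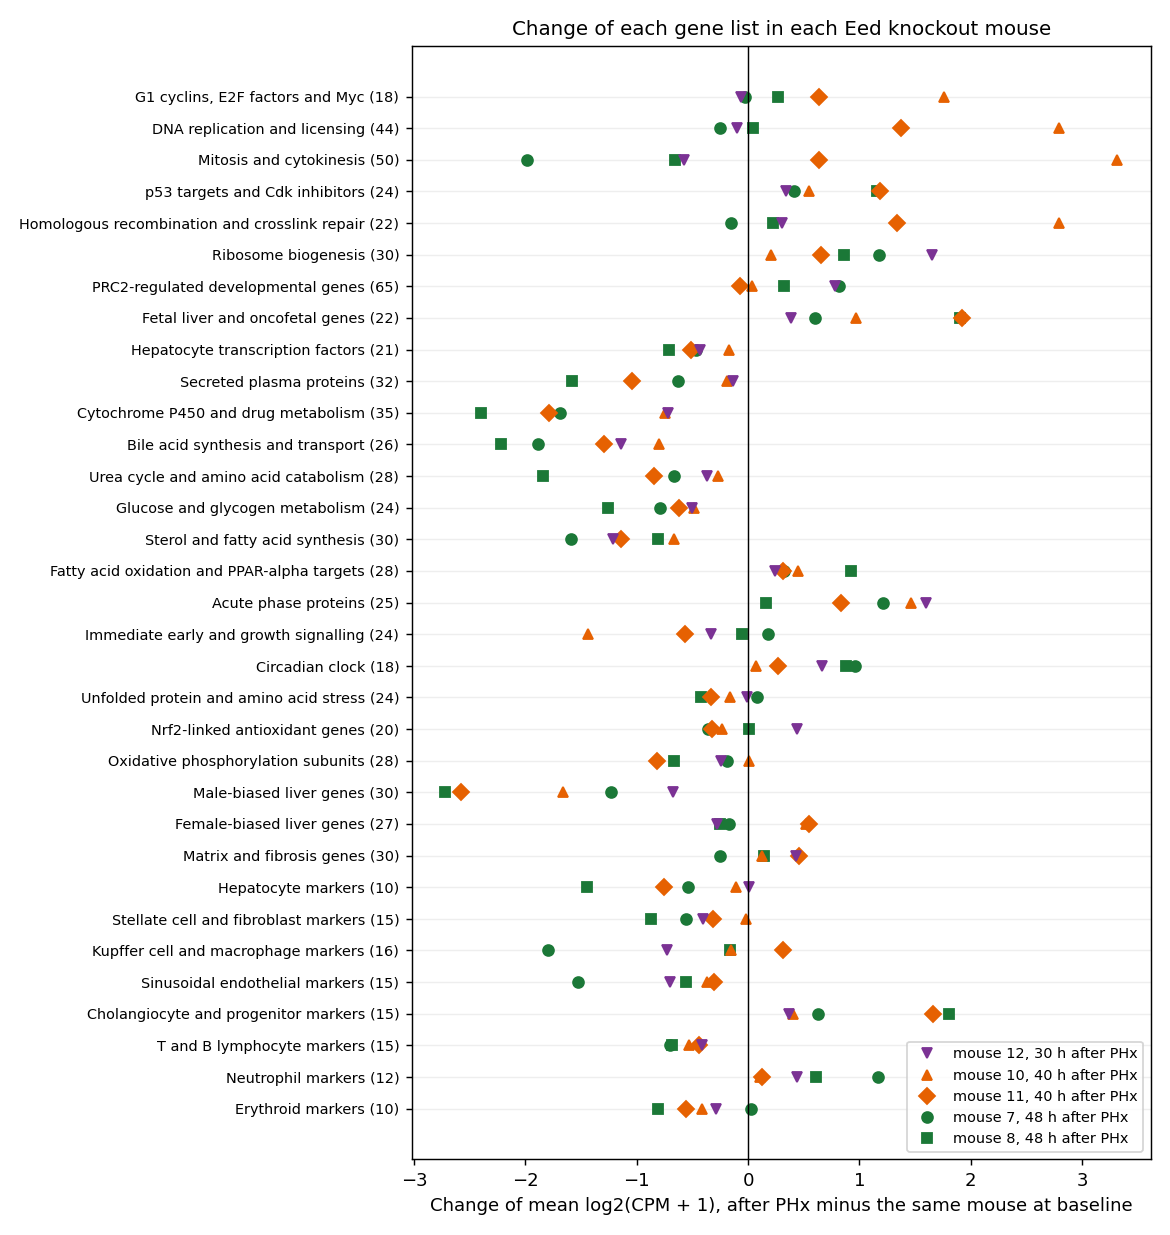
Change of the mean log2(CPM + 1) of each list, after PHx minus baseline of the same Eed knockout mouse, with 1 symbol per mouse and the number of genes in parentheses. Mitosis genes span from -1.99 in mouse 7 to 3.31 in mouse 10, male-biased genes are below 0 in all 5 mice, and the 2 mice of one collection time often lie apart.

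At 40 h (mice 10 and 11) 827 genes (5.64%) were higher and 446 (3.04%) lower than in the 5 baseline libraries, and at 48 h (mice 7 and 8) 3386 (23.1%) and 2856 (19.5%). The comparisons share their baseline, and time cannot be told apart from mouse. At 40 h 33 of 44 replication genes, 14 of 22 recombination genes and 5 of 50 mitotic genes were higher. At 48 h the counts were 5, 3 and 0 by edgeR and also by DESeq2, and 0 mitotic genes were higher at an unadjusted p under 0.05. Ribosome biogenesis was higher in 3 of 30 genes at 40 h and in 25 at 48 h, and P450 and conjugation genes were lower in 11 and 30 of 35. Male-biased genes were lower in 22 of 29 at 40 h and 17 at 48 h.

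With the mouse as a block the calls at 40 h were 8 higher and 9 lower and 0 members of these lists were called by edgeR. At an unadjusted p under 0.05 that fit held 35 replication, 20 recombination, 11 mitotic and 5 ribosome biogenesis genes higher, and 18 P450 and 26 male-biased genes lower, among 896 higher (6.11%) and 826 lower (5.63%) of all 14661 genes. At 48 h the block gave 631 higher (4.3%) and 878 lower (5.99%), with 7 ribosome biogenesis genes and 1 recombination gene higher and 14 P450 and 13 male-biased genes lower. Of the replication genes 0 were called higher by edgeR there, with 3 at an unadjusted p under 0.05 (6.82%, against 16.1% of all genes). Leaving out a mouse leaves 1 library at that time, which is assumed to vary like the other groups. Without mouse 10, 8.85% of all genes were higher at 40 h, and the counts were 16 for replication (36.4%), 3 for recombination (13.6%), 6 for ribosome biogenesis (20%) and 0 for mitosis. At an unadjusted p under 0.05 by edgeR that fit held 1 mitotic gene higher (2%, against 16.2% of all genes). Without mouse 11, 1.63% of all genes were higher and 0.559% lower at 40 h. The higher counts were then 9 for recombination (40.9%), 2 for mitosis (4%) and 0 for ribosome biogenesis, with 2 ribosome genes at an unadjusted p under 0.05 by edgeR (6.67%, against 8.66% of all genes). The lower counts were 2 for P450 (5.71%) and 7 for male-biased genes (24.1%). Without mouse 7, 12.1% of all genes were higher at 48 h, against 1 replication gene (2.27%), 1 recombination gene (4.55%) and 16 ribosome biogenesis genes (53.3%). Without mouse 8 the replication count was 3 (6.82%, against 14.3% of all genes).

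By edgeR's test of the difference itself, the KO response was higher than the WT response in 24 genes (0.164%) and lower in 33 (0.225%). These counts depended on the fit: DESeq2 gave 187 and 178, and leaving out KO mouse 10 after PHx gave 412 and 296. In WT liver 1677 genes (11.4%) rose and 1273 (8.68%) fell, 20.1% in either direction. Mybl1, a MYB factor of mitotic genes, was near 0 in resting WT liver, with a lowest, median and highest value of 0, 0.0515 and 0.138 CPM at baseline and 12.1, 15.2 and 33.2 CPM after PHx. In KO liver it stood at 9.59, 5.66, 1.72, 3.49 and 1.55 CPM at baseline and 5.93, 9.03, 22.1, 30.1 and 2.27 CPM after PHx. The difference in log2 fold change, KO minus WT, was -6.26 (SE 1.02, adjusted p = 0.00952). Saa2 had a lowest, median and highest value in WT of 5.64, 15.4 and 22.8 CPM at baseline and 1418, 3158 and 6886 CPM after PHx, and the difference was -5.13 (SE 0.94, adjusted p = 0.0176). All 5 KO baseline libraries lay above the WT baseline range in both genes. After PHx only mice 10 and 11 for Mybl1 and mouse 10 for Saa2 reached the WT range.

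In other genes the KO response was the higher one. Prss8, a membrane serine protease, had a lowest, median and highest value in WT of 4.07, 4.54 and 9.1 CPM at baseline and 2.23, 2.88 and 4.57 CPM after PHx, and in KO stood at 4.78, 2.11, 3.62, 4.03 and 5.92 CPM at baseline and 17.1, 108, 7.17, 116 and 6.15 CPM after PHx. The difference was 4.61 (SE 0.91, adjusted p = 0.029). Igf2 was at 0.0436 to 0.720 CPM in all WT libraries and differed by 5.06 (adjusted p = 0.0454). Carmil1, an actin regulator, differed by 3.30 (adjusted p = 0.0401). These 3 calls were fragile: of the 16 alternatives run on the difference, 7 ended the call for Prss8, 9 for Igf2 and 9 for Carmil1, among them each fit without the baseline library of mouse 7, 8, 10 or 11 or the library after PHx of mouse 8 or 11. With the mouse as a block none of the 11 named genes kept this call (adjusted p from 0.0718 to 0.354), and 2 genes were higher and 5 lower over all. Of the 15 other alternatives run on the difference, Mybl1 and Saa2 kept the call in all 15.

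In the acute phase list 4 of 25 members (16%, against 0.225% of all genes) had a lower response in KO, namely Saa1, Saa2, Orm2 and Apcs, and none a higher one. DESeq2 called 6 lower. The count was 2 without the baseline library of mouse 7 or 8 or the library after PHx of mouse 8, 11 or 12. With the mouse as a block it was 0 by edgeR, with 12 lower at an unadjusted p under 0.05 (48%, against 5.06% of all genes).

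In the mitotic list 46 of 50 members rose in WT (median 6.00) and 1 in KO. By edgeR's test of the difference 0 members were called, 34 had a lower KO response at an unadjusted p under 0.05 (883 of all 14661 genes did, 6.02%), and DESeq2 called 4 lower (178 of all, 1.21%). Its mean log2(CPM + 1) after PHx was 1.06, 1.70, 5.04, 2.69 and 0.93 in KO mice 7, 8, 10, 11 and 12, and ran from 0.50 to 5.79 in WT. Without the library of KO mouse 10 after PHx, 28 of the 50 had a lower KO response (median difference -6.67). Of all 14661 genes 294 did. That fit drops the KO library highest in this list and keeps all WT libraries, so it cannot test for a lower KO response. With the mouse as a block 9 had a lower KO response at an unadjusted p under 0.05 and 0 were called by edgeR.

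**Figure D5:**
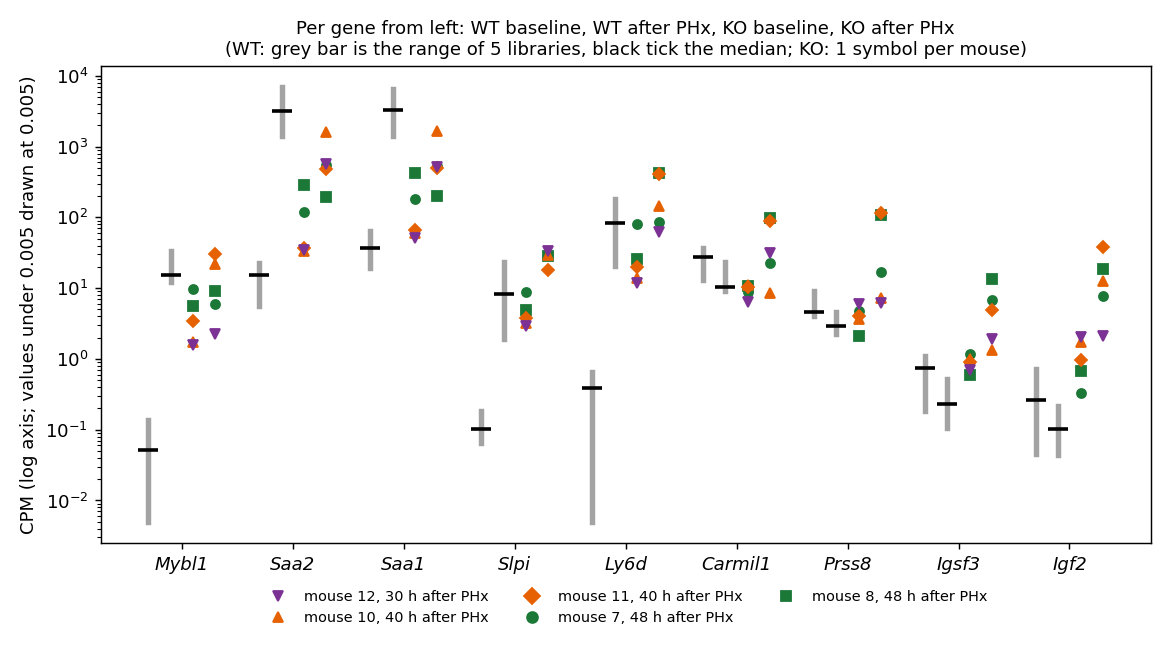
CPM (log axis) of 9 genes whose response to PHx differed between Eed knockout and wild type, with grey bars for the range of 5 wild-type libraries, a black tick for their median, and 1 symbol per knockout mouse. Wild-type baselines of Mybl1, Slpi and Ly6d lie below every knockout baseline, and the wild-type medians of Carmil1, Prss8, Igsf3 and Igf2 are lower after PHx than at baseline.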

How the data were processed

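RNA from whole liver pieces (1000 ng, RNA integrity number above 8) was made into TruSeq libraries and sequenced in pairs on a NovaSeq 6000, per the labels' protocols. The authors deposited raw counts per Ensembl gene, 1 file per library, made from uniquely mapped reads on mm10, per the series' design text. Reads were checked with FastQC 0.11.5. The design text names fastp 0.20.0 for trimming and the submitters' processing notes name Trimmomatic 0.36. The aligner, counter and strand setting are not given in the sources used here. Of 46603 identifiers 46091 took a symbol from GENCODE M21, and 21018 had no count in any library.

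All 20 libraries were fitted with edgeR 4.0.16 (R 4.3.3, limma 3.58.1) on the counts with 4 group means, TMM scaling and edgeR's default filter by expression. The quasi-likelihood test was used with Benjamini-Hochberg adjustment over all genes tested, two-sided, and called means an adjusted p under 0.05. The 40 h and 48 h comparisons used the same baseline libraries in a fit that divided the groups by time, and the difference was tested as KO response minus WT response. Alternatives were RLE scaling, library size alone, no filter, a filter of 1 CPM in 5 libraries, DESeq2 1.42.0, the mouse as a block, the KO libraries alone, and each KO library left out. A block fit of the KO libraries alone was added after seeing the data. The labels give the baseline and later sample of one mouse the same number, so the numbers pair the KO libraries. The label of 1 WT baseline library carries no mouse number, so block fits rest on 5 KO pairs and 4 WT pairs, and the 2 unpaired WT libraries add nothing to the WT response there. The correlation of their residuals was 0.195, 0.128, -0.063, 0.048 and 0.103 in mice 7, 8, 10, 11 and 12, against -0.229 to 0.285 between different mice.

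Gene lists, members and named genes were chosen with earlier results of these data known. Named genes were 30 fixed genes, the 12 highest and 12 lowest changes among called protein-coding genes with a mean of at least 5 CPM in the higher group that moved one way in all 5 mice, up to 4 called members per list with the largest change and a mean of at least 1 CPM plus the member with the highest mean, and the 5 highest and 5 lowest differences from WT among genes called in both tests. Ratios of pooled counts carry 95% intervals for counting error only. A few genes that the rule names are not reported here. No pair of libraries had identical counts. Mice are the replicates, and each value rests on 5 libraries a group, or at 40 h and 48 h on 2 libraries after PHx against 5 at baseline. The code was tested on simulated counts.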

Additional observations from a re-analysis of the deposited data

Results flagged for a closer look

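Among 376 groups of 5 libraries checked for a single value far from the other 4, 13 were marked, and chance marks about 1 in 20 groups. After PHx these were Foxm1 in mouse 10 at 46.7 CPM (group median 2.19 CPM) and Chaf1b in mouse 10 at 25.2 CPM (6.00 CPM), Ptprb, an endothelial phosphatase, in mouse 7 at 13.1 CPM (40.0 CPM), the transcription factor gene Zbtb7c in mouse 7 at 14.7 CPM (5.50 CPM) and the protease inhibitor Slpi in mouse 11 at 18.1 CPM (29.8 CPM). At baseline mouse 7 stood apart in Col1a1 at 44.6 CPM (13.1 CPM), Fabp1, a fatty acid binding protein, at 2115 CPM (2637 CPM) and Hand2 at 13.1 CPM (19.1 CPM). Mouse 12 did in Dbp at 8.40 CPM (1.58 CPM) and Sesn2 at 11.3 CPM (8.30 CPM). Single values were also marked for E2f1 in mouse 10 at 4.10 CPM (5.35 CPM), Gdf15 in mouse 11 at 87.2 CPM (154 CPM) and Ddit3 in mouse 8 at 16.6 CPM (4.38 CPM).

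The response to PHx of 11 named genes differed between KO and WT liver by edgeR's test of the difference, given as KO minus WT in log2 fold change. It was lower in KO for Mybl1 at -6.26 (adjusted p = 0.00952), Saa2 at -5.13 (adjusted p = 0.0176), Ly6d at -5.06 (adjusted p = 0.0414), Saa1 at -4.22 (adjusted p = 0.0418) and Slpi at -3.79 (adjusted p = 0.0466). It was higher for Igf2 at 5.06 (adjusted p = 0.0454), Prss8 at 4.61 (adjusted p = 0.029), Igsf3 at 3.92 (adjusted p = 0.0454), Zbtb7c at 3.36 (adjusted p = 0.032), Carmil1 at 3.30 (adjusted p = 0.0401) and Cela1, an elastase, at 1.70 (adjusted p = 0.0264). Of the 16 alternatives run on the difference, 1 each ended the call for Mybl1 and Saa2, 6 for Ly6d and Cela1, 7 for Saa1, Prss8 and Zbtb7c, 9 for Igf2 and Carmil1, 10 for Slpi and 11 for Igsf3. The block ended the call of all 11, and most other losses came in fits without 1 KO library.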

How the results depend on the processing

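RLE scaling and the CPM filter kept every count over all genes within 1.5 times of that reported, and no result changed direction with a call. For KO liver after PHx, scaling by library size alone gave 4059 higher and 961 lower genes, and the KO libraries alone 1052 lower. Leaving out 1 KO library gave 1789 to 3404 higher and 1098 to 2633 lower genes, the fewest lower without mouse 7 (1098) or 8 (1173) after PHx. At 40 h library size alone gave 2022 higher and 263 lower, no filter 1312 higher, and DESeq2 1257 and 817. Leaving out 1 library gave 239 to 1339 higher and 82 to 720 lower, with the extremes set by mice 11 and 10. At 48 h library size alone gave 5200 higher and 1713 lower, and leaving out 1 library 1782 to 3690 higher and 1596 to 3325 lower, the fewest without mouse 7. For the difference from WT, library size alone gave 9 higher, no filter 14 higher, and DESeq2 187 higher and 178 lower, while leaving out 1 library gave 6 to 412 higher and 22 to 296 lower, both highest without mouse 10 after PHx. The causes were not tested.

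With the mouse as a block, the KO response held 1575 higher genes, 40 h 8 higher and 9 lower, 48 h 631 and 878, and the difference 2 and 5. The block in the KO libraries alone gave 1030 higher and 1128 lower, 110 and 80 at 40 h, and 1007 and 1464 at 48 h. Of the 147 named genes called, the block kept 126 and ended 21, and it added 3. It changed no other call of a named gene. Depth limited the ratios of genes with few baseline counts, such as Prss22 and Oxtr, and genes under the filter, such as 20 developmental genes, were not tested.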
